A study of Mus musculus with 20 samples.

Results

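ETS1 sites in H3K4me3 peaks were the peaks of the deposited ETS1 list that shared at least 1 bp with a peak of the deposited H3K4me3 list. They numbered 1448 of 2359 ETS1 peaks, and 1371 of 28013 H3K4me3 peaks, or 4.89%, held all or part of at least 1 of them. The sites were selected on the measured overlap of these lists, so the overlap itself is a description. The cells were CD4+/CD8+ double-positive thymocytes, an intermediate stage of T-cell development, taken from the thymus of wild-type C57BL/6 mice and enriched with magnetic beads for CD8 and then for CD4. All libraries came from this unperturbed cell type, mice were 5 to 6 weeks old where the labels give an age (the FAIRE and RNA samples), and the design has no treated or mutant group. The study mapped 16 targets by chromatin immunoprecipitation and sequencing (ChIP-seq) or by FAIRE, an antibody-free way to recover open chromatin, with 1 peak list per target.

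ETS1 is the founding member of the ETS family of transcription factors. It binds DNA at a short core motif, is abundant in T cells and their thymic precursors, and is known there for binding both promoters and enhancers. H3K4me3 is a histone mark of the nucleosomes around active start sites, and H3K4me1 is common at enhancers and along the flanks of promoters. Transcription by RNA polymerase II (Pol II) begins with TBP, which binds core promoter DNA as part of TFIID. TFIIB then bridges TBP and Pol II, TFIIF accompanies the polymerase, and TFIIE recruits TFIIH, whose enzymes open the DNA and phosphorylate Pol II. CBP is a coactivator that acetylates histones and binds many sequence-specific activators.

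Each peak came with an area, the authors' value for the signal under the peak. ETS1 sites in H3K4me3 peaks had a median area of 10092 (quartiles 5572 and 16619), against 7021 for the 911 other ETS1 peaks. Their median width was 140 bp, against 100 bp. The share of ETS1 peaks that lay in H3K4me3 peaks climbed with ETS1 area, from 44.5% in the lowest area decile (95% Wilson interval 38.3 to 50.9) to 77.9% in the highest (72.1 to 82.7). A wider ETS1 peak shares 1 bp with the mark more easily. Area and width ranked the sites almost alike (rank correlation 0.990 over 1448 sites). The climb and the larger areas and widths of the sites are therefore partly built in by the rule. In a bulk population an area cannot separate more bound cells from stronger binding per cell. Each list was the only one of its target, so no spread between replicates could be set against any difference. All intervals below are 95% intervals of counting error, except those of ratios of medians, whose limits come from the intervals of both medians. They treat sites as independent although some shared an H3K4me3 peak.

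At the limit of the rule, 12 sites overlapped an H3K4me3 peak by 10 bp, the length of 1 signal bin, and had a median area of 4819. Just outside it, 9 ETS1 peaks abutted an H3K4me3 peak with no gap and had a median area of 8280. In all, 164 ETS1 peaks lay within 1000 bp of the mark without overlapping it. TBP peaks overlapped 43.3% of those 164, against 19.0% of the 747 that lay beyond 1000 bp.

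The label of promoter was checked against promoter factors, since gene starts were not used here. The H3K4me3 peak that held the larger part of a site, called its host, overlapped neither a TBP nor a Pol II peak for 328 of the 1448 sites (22.7%, 20.6 to 24.9). These members are therefore called sites in H3K4me3 peaks, not promoter sites. The 1448 sites had 1338 hosts, of which 1242 held 1 site, 84 held 2, 10 held 3 and 2 held 4. Neighbouring sites in the same host were a median of 318 bp apart (quartiles 171 and 653). On the X chromosome 10 of 37 ETS1 peaks were in H3K4me3 peaks (27.0%, 15.4 to 43.0), against 1437 of 2316 on the autosomes (62.0%, 60.1 to 64.0). Among autosomes the share ranged from 46.6% on chromosome 14 to 70.7% on chromosome 11.

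Within their hosts, ETS1 midpoints were most frequent near the middle and fewer towards the edges. Position was measured as the distance from the nearer edge in percent of host width, so that 0% is an edge and 50% is the centre. The median was 26.6% (25.4 to 28.5), and it counts the 144 midpoints outside the host as negative values. An even spread with all midpoints inside would give 25%, so that value is not directly comparable. In base pairs the midpoint lay a median of 335 bp inside the nearer edge (310 to 355) and 240 bp from the centre (225 to 255). Whole containment was usual, with 1155 sites (79.8%) entirely inside the host, while 35 sites touched 2 H3K4me3 peaks.

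The histogram along the host showed this shape, apart from its last bin. The bins on either side of the centre held 12.6% and 11.2% of sites, and the outermost bins held 6.08% and 8.01%, the second of these above the 6.91% of the bin next to it. The remaining 9.94% of sites (144) had their midpoint outside the host and only a flank inside it. Joining H3K4me3 peaks closer than 500 bp into domains left a peaked shape that fell to 6.15% in the last bin, with a median of 28.7% and 6.90% of midpoints outside.

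**Figure D1:**
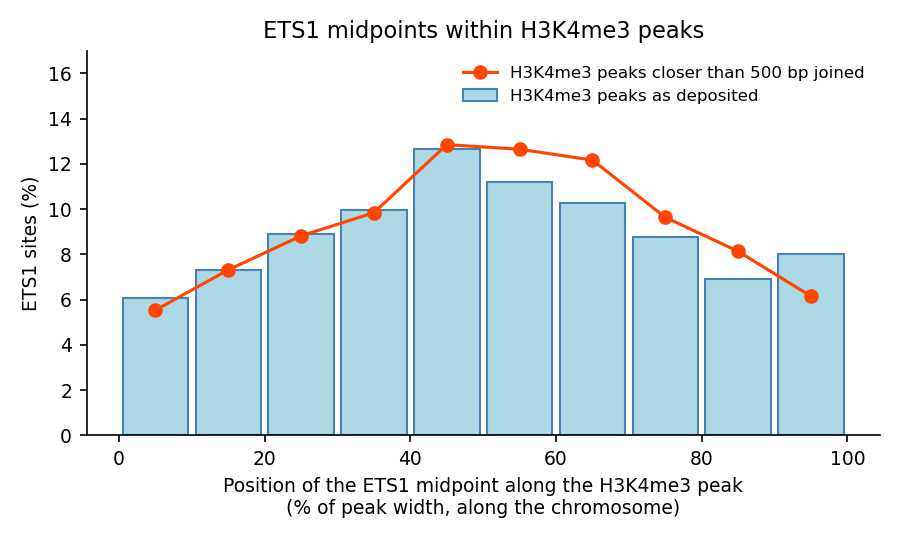
Share of ETS1 sites (y axis, percent) in bins of 10% of the width of the H3K4me3 peak (x axis, along the chromosome). Bars use H3K4me3 peaks as deposited and points use peaks joined across gaps under 500 bp, and both are highest at the centre, with 12.6% and 12.9% in the bin from 40 to 50%.

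Position depended on host width. In hosts of 180 to 700 bp the median was 10.2% of the width, or 50 bp inside the edge. Sites with the midpoint outside the host count as negative values here, and their hosts had a median width of 480 bp. The low median of narrow hosts is thus partly set by the 1 bp rule. In hosts of 710 to 1130 bp, 1140 to 1950 bp and 1960 to 11230 bp the medians were 31.6%, 32.3% and 28.3%, or 285, 465 and 833 bp inside. Peaks of TBP, CBP and FAIRE that overlapped H3K4me3 had lower position medians than ETS1, at 22.1% (21.5 to 22.7), 21.1% (19.9 to 22.4) and 19.2% (18.4 to 20.1). So did Ser5P Pol II, at 22.4% (21.9 to 23.0). The median of Pol II was 25.0% (24.5 to 25.5), with an interval that met that of ETS1. Each list had its own hosts, and host widths were not matched between lists. Midpoints outside the host, counted as negative, made up 9.94% for ETS1, 8.81% for TBP, 11.4% for CBP and 15.7% for FAIRE. They made up 5.80% for Ser5P and 2.55% for Pol II. The part of width and of these midpoints in the differences was not tested.

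CBP and open chromatin were more frequent at the boundary of the mark, and TBP and Pol II deeper inside. CBP peaks overlapped 52.8% of the 144 sites whose midpoint lay outside the host, 36.1% of the 241 sites up to 100 bp inside the edge and 28.3% of the 1063 deeper sites. Their FAIRE shares were 68.1%, 61.4% and 47.4%. TBP ran the other way, at 51.4%, 55.6% and 63.9%, as did Pol II, at 45.8%, 49.4% and 59.7%. ETS1 area moved with this grouping, with medians of 13874, 9870 and 9535, and so did host width, with medians of 480, 630 and 1430 bp; their part in the shares was not tested. An ETS1 peak in a gap of the mark that touches either flank is a site by the rule. Of the 144 sites with the midpoint outside, 43 had a nearest edge that faced another H3K4me3 peak within 500 bp (29.9%, 23.0 to 37.8). The share was 25.7% for sites up to 100 bp inside the edge and 20.0% for the deeper sites. It was 19.5% over all edges of hosts and 32.5% over all edges of H3K4me3 peaks. Of the 911 other ETS1 peaks, 18 lay wholly in a gap of up to 1000 bp between H3K4me3 peaks. CBP and FAIRE each overlapped 61.1% of those 18, and TBP and Pol II each 55.6%. Among the 893 elsewhere CBP was at 23.2%, FAIRE at 36.7%, TBP at 22.7% and Pol II at 12.4%.

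At most sites a TBP peak was centred close to ETS1. A TBP midpoint lay within 150 bp of the ETS1 midpoint at 900 of 1448 sites (62.2%, 59.6 to 64.6), against 25.2% of other ETS1 peaks (22.5 to 28.2) and 47.9% of all ETS1 peaks. The difference was 36.9 percentage points (Newcombe interval 33.0 to 40.6). For Pol II the count was 802 sites (55.4%, 52.8 to 57.9), against 14.9% of other ETS1 peaks (12.8 to 17.4) and 39.8% of all, a difference of 40.5 points (36.9 to 43.8). Few sites had these factors at intermediate range. TBP was between 150 and 500 bp away at 4.77% of sites and beyond 2000 bp at 27.6%, and Pol II was at these distances for 8.84% and 30.3%.

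Where a midpoint lay within 500 bp, its distance from ETS1 differed by factor. FAIRE was nearest, with a median of 30 bp (30 to 35), followed by TBP at 35 bp (30 to 35), TFIIB at 35 bp (35 to 40) and CBP at 35 bp (35 to 40). TFIIE stood at 50 bp (45 to 55), and Pol II at 65 bp (60 to 70). Ser5P, the form of Pol II phosphorylated on serine 5 near initiation, was at 75 bp (70 to 85), and TFIIH was at 105 bp. Those intervals did not overlap between TBP and TFIIE, nor between TFIIE and Pol II. At other ETS1 peaks with the same factors within 500 bp the medians were 35 bp to TBP and TFIIB, 60 bp to Pol II and 75 bp to TFIIH. In absolute terms TFIIB was near the most sites, within 150 bp at 64.1%, against 33.7% of other ETS1 peaks. FAIRE was so at 53.7% against 39.5%, TFIIE at 52.4% against 20.9% and Ser5P at 33.5% against 7.35%. CBP was at 32.9% against 25.2%, TFIIH at 12.6% against 4.17% and TFIIF at 8.70% against 4.50%. TFIIA was at 6.91% against 3.07%, and Taf1 at 4.28% against 4.50%.

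**Figure D2:**
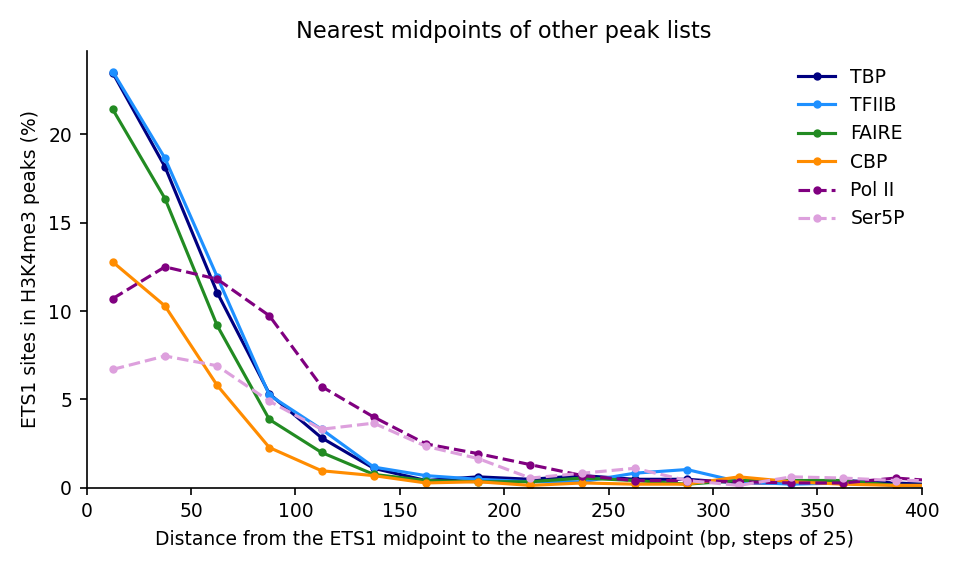
Share of ETS1 sites in H3K4me3 peaks (y axis, percent) by distance from the ETS1 midpoint to the nearest midpoint of 6 other lists (x axis, bp, steps of 25 bp). TBP, TFIIB, FAIRE and CBP are highest in the first step, at 23.5%, 23.5%, 21.4% and 12.8%, while Pol II is highest from 25 to 50 bp, at 12.5%.

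The order of ETS1, TBP and Pol II along the DNA was examined at the 797 sites with both factors within 500 bp. In 665 of them TBP and Pol II midpoints were at least 20 bp apart, with a median separation of 65 bp, which gave each site a direction from TBP towards Pol II. On this line ETS1 sat a median of 5 bp from TBP (0 to 10) on the Pol II side, with quartiles of -25 and 45 bp. ETS1 lay on the far side of TBP from Pol II at 44.1% of sites (40.3 to 47.9) and beyond Pol II at 12.3% (10.0 to 15.0). At 43.6% (39.9 to 47.4) it lay between them or level with 1 of them. ETS1 was nearer to TBP than to Pol II at 72.0% (68.5 to 75.3).

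Other factors were placed on the same line at the subset of these sites that had each of them. FAIRE had a median of -2.5 bp (-10 to 5) at 420 sites, CBP one of 0 bp (-5 to 10) at 280 and TFIIB one of 10 bp (5 to 15) at 585, and these intervals met. TFIIE was at 20 bp (15 to 30) over 529 sites and Ser5P at 45 bp (40 to 60) over 458. The centre of the host was displaced to the Pol II side of TBP at 69.0% of sites (65.4 to 72.4), by a median of 190 bp (150 to 215). The nearest midpoint to ETS1 was taken for every factor, which by itself favours short distances. Where TBP and Pol II were 100 bp or more apart, at 184 sites, the ETS1 median was 25 bp from TBP (10 to 40).

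Occupancy was counted next, as peaks that overlapped the ETS1 peak itself. TFIIB overlapped 891 of 1448 sites (61.5%) against 31.7% of other ETS1 peaks, with 50.0% of all ETS1 peaks as background. TBP overlapped 887 (61.3%) against 23.4%, with 46.6% of all. Pol II overlapped 820 (56.6%) against 13.3%, with 39.9% of all. TFIIE overlapped 738 (51.0%) against 19.1%, with 38.7% of all. For Ser5P the count was 485 (33.5%) against 6.37%, with 23.0% of all. All of these members' shares were above the background of their list.

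TFIIH, TFIIF and TFIIA were present at fewer sites. TFIIH overlapped 164 (11.3%) against 3.62%, with 8.35% of all ETS1 peaks. TFIIF overlapped 116 (8.01%) against 4.17%, with 6.53% of all. TFIIA, which stabilises TBP on DNA, overlapped 93 (6.42%) against 2.85%, with 5.04% of all. Taf1, the largest TFIID subunit, overlapped 46 (3.18%) against 4.28%, with 3.6% of all, and the difference of -1.10 points had an interval of -2.81 to 0.431. Of the 13518 Taf1 peaks, 1159 overlapped H3K4me3, against 10376 of the 15651 TBP peaks. The counts were 1911 of 8618 for TFIIH, 452 of 1262 for TFIIF and 1172 of 6588 for TFIIA. Elongation marks were rare, with Ser2P, the form of elongating Pol II, at 16 sites (1.10%, background 1.27%) and H3K36me3, which marks the bodies of transcribed genes, at 10 (0.691%, background 0.721%).

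CBP and FAIRE were also at more of these sites than of other ETS1 peaks. CBP overlapped 464 sites (32.0%) against 23.9% of other ETS1 peaks, with 28.9% of all as background. FAIRE overlapped 750 (51.8%) against 37.2%, with 46.2% of all. The other ETS1 peaks had smaller areas, so their shares were also weighted to the area deciles of the sites in H3K4me3 peaks. The CBP difference was then 3.67 points (-0.356 to 7.70) and the FAIRE difference 8.41 (4.17 to 12.6). Those of Pol II and TBP were 41.7 points (38.0 to 45.3) and 33.9 points (29.8 to 38.1), close to the unweighted 43.3 and 37.9. The TFIIF difference, 3.84 points unweighted, was 1.84 when weighted (-0.568 to 4.25). H3K4me1 overlapped 1214 sites (83.8%) against 85.4%, with 84.4% of all, so most sites carried both marks. Weighted by area, the H3K4me1 difference was -4.67 points (-7.43 to -1.91).

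ETS1 sites held a larger part of some lists than of others. Among peaks of each list that overlapped H3K4me3, those touching an ETS1 site made up 24.8% of 1864 CBP peaks and 24.1% of 452 TFIIF peaks. The share was 14.4% of 5132 FAIRE peaks, 12.0% of 7663 TFIIB peaks, 10.7% of 7052 TFIIE peaks and 8.58% of 10376 TBP peaks. For Pol II and Ser5P it was 7.11% of 11606 and 6.08% of 8373 peaks, and for Taf1 3.97% of 1159. List lengths and the authors' thresholds differ between targets, and their part in these shares was not tested.

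Sites were then ranked by ETS1 area into deciles of 144 or 145. The number of the 7 general factors TBP, Taf1, TFIIA, TFIIB, TFIIE, TFIIF and TFIIH that overlapped a site averaged 2.71 ± 1.35 (SD over 144 sites) in the highest decile and 1.36 ± 1.34 (SD over 145 sites) in the lowest. The difference was 1.35 factors per site (1.04 to 1.66). Peak width climbed with area from a median of 40 bp to one of 250 bp, and a wider peak overlaps more by its size. Counted in a fixed window of 200 bp on either side of the ETS1 midpoint, the difference was 0.826 (0.499 to 1.15).

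Individual factors differed in how far they followed ETS1 area. CBP overlapped 59.7% of sites in the highest decile and 15.9% in the lowest, a difference of 43.9 points (33.2 to 53.0), and 39.7 points in the fixed window (28.8 to 49.3). TFIIB stood at 81.3% and 40.0%, a difference of 41.3 points, and 24.7 in the window (14.3 to 34.4). TFIIF was at 25.0% in the highest decile and 0.690% in the lowest, and its window difference was 22.9 points (15.3 to 30.8). FAIRE had 73.6% and 40.0%, with a window difference of 23.3 points (12.2 to 33.6). For TFIIE the shares were 66.0% and 34.5%, and for TBP 72.9% and 46.9%, with window differences of 18.4 (7.06 to 29.1) and 12.2 points (1.43 to 22.6).

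For Pol II the difference was not seen in the fixed window. By overlap it was at 63.9% of sites in the highest decile and 47.6% in the lowest, a difference of 16.3 points (4.85 to 27.2). In the window the shares were 65.3% and 65.5%, a difference of -0.239 points (-11.1 to 10.6). Ser5P was similar, with 41.7% and 23.4% by overlap and a window difference of 4.45 points (-6.89 to 15.6). Between the extreme deciles Taf1 differed the other way in the window, with 2.78% in the highest and 8.97% in the lowest, a difference of -6.19 points (-12.2 to -0.663). Its shares showed no steady trend along the deciles, with 3.45% in the third and 9.03% in the fifth. Distances from ETS1 to the nearest TBP midpoint within 500 bp had decile medians between 25 and 40 bp, with no trend along the deciles.

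**Figure D3:**
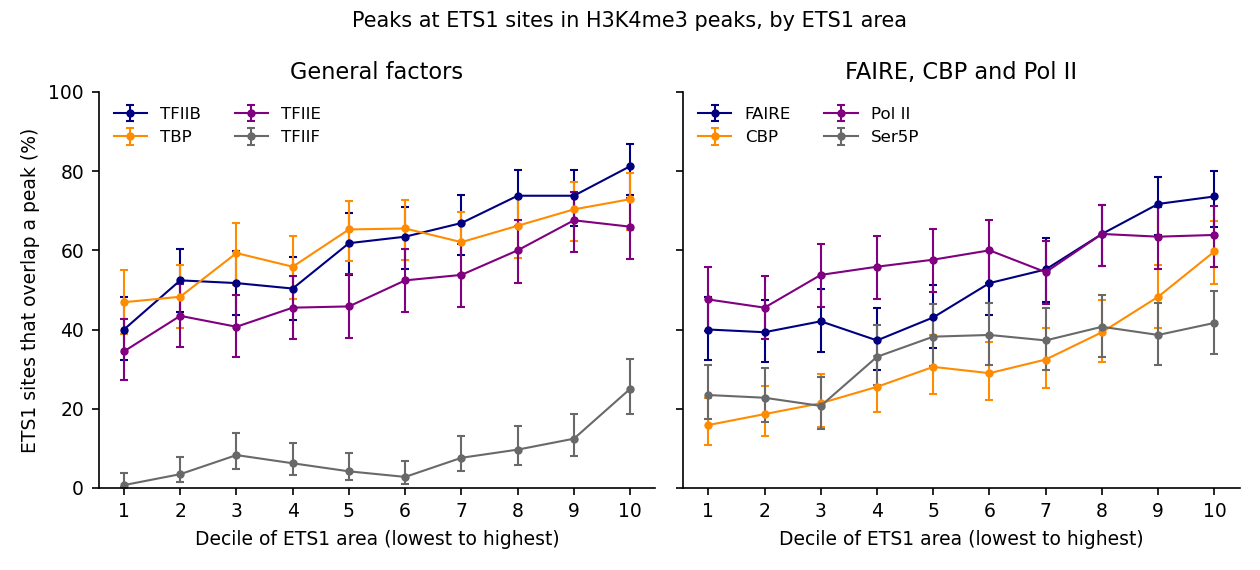
Share of ETS1 sites in H3K4me3 peaks that overlap a peak of each list (y axis, percent, bars are 95% Wilson intervals) by decile of ETS1 area from lowest to highest (x axis, 144 or 145 sites each). CBP climbs from 15.9% to 59.7% and TFIIF is highest in the last decile, at 25.0%, while Pol II stays between 45.5% and 64.1%.

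CBP was more frequent at high ETS1 area both where TBP and Pol II overlapped the site and where neither did. Sites were split at the quartiles of ETS1 area over all 1448. Overlap was with the ETS1 peak itself, which is wider at high area, and the fixed window was not used for this split. Among the 696 sites that overlapped both TBP and Pol II, CBP was at 53.1% of those in the highest quartile and 22.0% in the lowest, a difference of 31.1 points (20.8 to 40.2). Among the 437 with neither, it was at 50.0% and 14.7%, a difference of 35.3 points (22.5 to 47.1). Other machinery was present in that class, with TFIIB at 52.5% of its highest and 20.6% of its lowest quartile. Among the 911 ETS1 peaks outside H3K4me3, at the same area limits, it was at 46.9% and 18.0%, a difference of 28.9 points (19.0 to 38.8). The intervals of the 3 differences overlapped, and whether they differ was not tested.

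TBP shares in and outside H3K4me3 peaks lay further apart within the same area limits. In the highest quartile it overlapped 71.0% of sites in H3K4me3 peaks and 38.9% of ETS1 peaks outside. In the lowest quartile the shares were 50.3% and 13.3%. Pol II was at 64.6% and 19.5% in the highest quartile, and at 48.6% and 9.39% in the lowest. TFIIB was at 77.6% and 52.2% in the highest, and at 47.0% and 24.3% in the lowest.

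The 4 most frequent promoter lists, TBP, TFIIB, TFIIE and Pol II, tended to be found together. All 4 overlapped 486 sites (33.6%) and none overlapped 249 (17.2%), while 274, 199 and 240 sites had 1, 2 and 3 of them. Such combinations were not counted over all ETS1 peaks, so these shares have no background and describe the sites only. Sites with all 4 had a median ETS1 area of 12506, and CBP overlapped 44.9% of them (40.5 to 49.3) and FAIRE 66.3% (61.9 to 70.3). At sites with none the median area was 7223, CBP was at 14.9% (11.0 to 19.8) and FAIRE at 29.7% (24.4 to 35.7). H3K4me1 ran in reverse, at 76.3% of sites with all 4 and 94.0% of those with none. Their hosts had median widths of 1705 and 820 bp.

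A group of 236 sites (16.3%) overlapped none of the 7 general factors, Pol II or Ser5P, a share that was likewise not counted over all ETS1 peaks. The host of 97 of them held such a peak elsewhere. CBP overlapped 14.0% of these 236 (10.1 to 19.0), against 35.6% of the other 1212 (32.9 to 38.3), and FAIRE 28.4% against 56.4%. Read from the side of CBP, the 464 sites with a CBP peak more often had TFIIB than the 984 without, at 79.1% against 53.3%, a difference of 25.8 points (20.8 to 30.5). FAIRE was at 71.8% against 42.4%, a difference of 29.4 points (24.1 to 34.3). The differences for Pol II and TBP were smaller, at 13.7 (8.30 to 18.9) and 13.2 points (7.96 to 18.3). Sites with CBP also had the larger ETS1 areas, with medians of 13554 and 8728.

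TBP and Pol II were more frequent in hosts with more H3K4me3, while CBP and FAIRE were not. All H3K4me3 peaks were ranked by area into quintiles, and from the lowest to the highest these hosted 10.8%, 18.0%, 19.8%, 15.5% and 36.0% of the ETS1 sites. TBP overlapped 39.7%, 45.4%, 54.7%, 68.3% and 76.2% of these sites. Pol II overlapped 35.9%, 31.2%, 47.4%, 59.8% and 79.3%, and Ser5P went from 16.0% in the lowest quintile to 49.7% in the highest. TFIIE climbed from 34.0% to 64.7%. TFIIB was at 55.8%, 45.0%, 60.3%, 62.1% and 72.0%, and TFIIF was level, at 8.33%, 4.62%, 7.67%, 8.48% and 9.60%. Taf1 was at 3.85%, 0.769%, 2.09%, 2.68% and 4.99%.

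CBP showed no such gradient, at 36.5%, 30.8%, 34.1%, 28.1% and 31.9% of sites from the lowest to the highest quintile. FAIRE was also level, at 55.1%, 50.4%, 55.4%, 51.8% and 49.5%. H3K4me1 dropped at the top, from 97.4% in the lowest quintile (93.6 to 99.0) to 65.8% in the highest (61.7 to 69.8). Median ETS1 area was 10732, 11200, 11136, 10179 and 8921 along the quintiles. The midpoint lay outside the host at 41.0% of sites in the lowest quintile and at 1.34% in the highest, and median host width ran from 375 to 2360 bp.

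**Figure D4:**
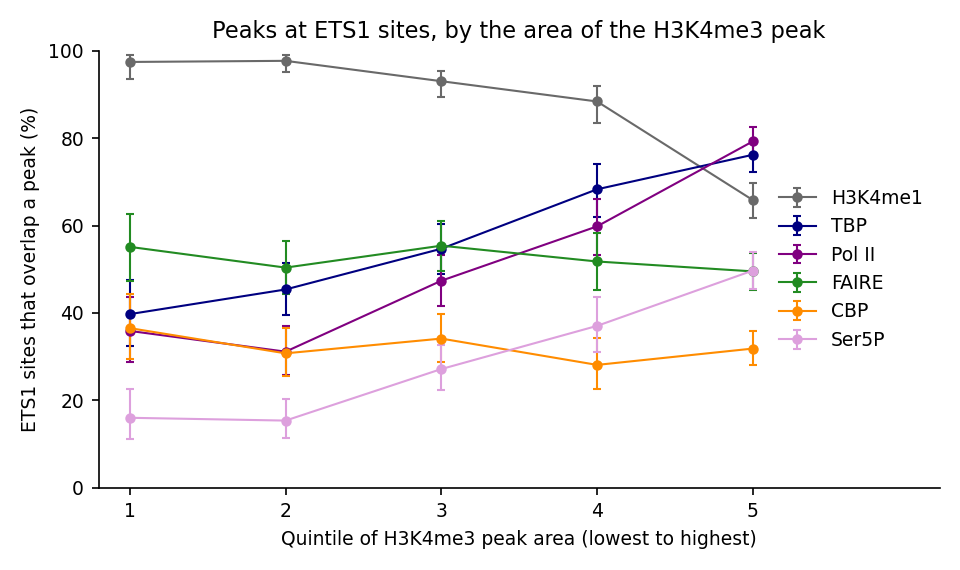
Share of ETS1 sites that overlap a peak of each list (y axis, percent, bars are 95% Wilson intervals) by quintile of the area of the host H3K4me3 peak (x axis, lowest to highest). Pol II ends at 79.3% and TBP at 76.2% in the highest quintile, CBP stays between 28.1% and 36.5%, and H3K4me1 ends at 65.8%.

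H3K4me3 peaks with ETS1 were wider than those without. The median width was 1080 bp in the 1371 peaks with ETS1 (1030 to 1130) and 640 bp in the 26642 without (630 to 640), a ratio of medians of 1.69 (1.61 to 1.79). Widths of 2 kb or more were found for 21.4% of peaks with ETS1 and 3.69% of those without. Restricted to peaks that overlapped Pol II, the medians were 1375 and 890 bp, a ratio of 1.54 (1.43 to 1.69). Among peaks without Pol II they were 720 and 560 bp, a ratio of 1.29 (1.21 to 1.42). A wide peak offers more room for an ETS1 peak by its size alone.

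ETS1 midpoints per megabase (Mb) of H3K4me3 peak took that room into account. The density was 22.7 per Mb in the narrowest width decile (exact Poisson interval 12.7 to 37.5) and 80.9 in the widest (74.2 to 88.1), against 57.0 over all H3K4me3 peaks. By fixed classes it was 33.8 below 500 bp, 46.0 from 500 to 1000 bp, 63.9 from 1000 to 2000 bp, 87.7 from 2000 to 4000 bp (77.1 to 99.3) and 81.9 from 4000 bp (66.3 to 100.2). The last pair of classes did not differ beyond their intervals. Of the 202 H3K4me3 peaks of 4000 bp or more, 81 held ETS1 (40.1%, 33.6 to 47.0).

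Despite their width, H3K4me3 peaks with ETS1 had less area per bp. The median was 236 in peaks with ETS1 and 313 in those without. The same direction was seen in each of the 10 width deciles, with ratios of the medians, with over without, between 0.451 in the sixth and 0.924 in the widest. Among peaks with Pol II the medians were 350 with ETS1 and 474 without, and among peaks without Pol II they were 161 and 259.

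**Figure D5:**
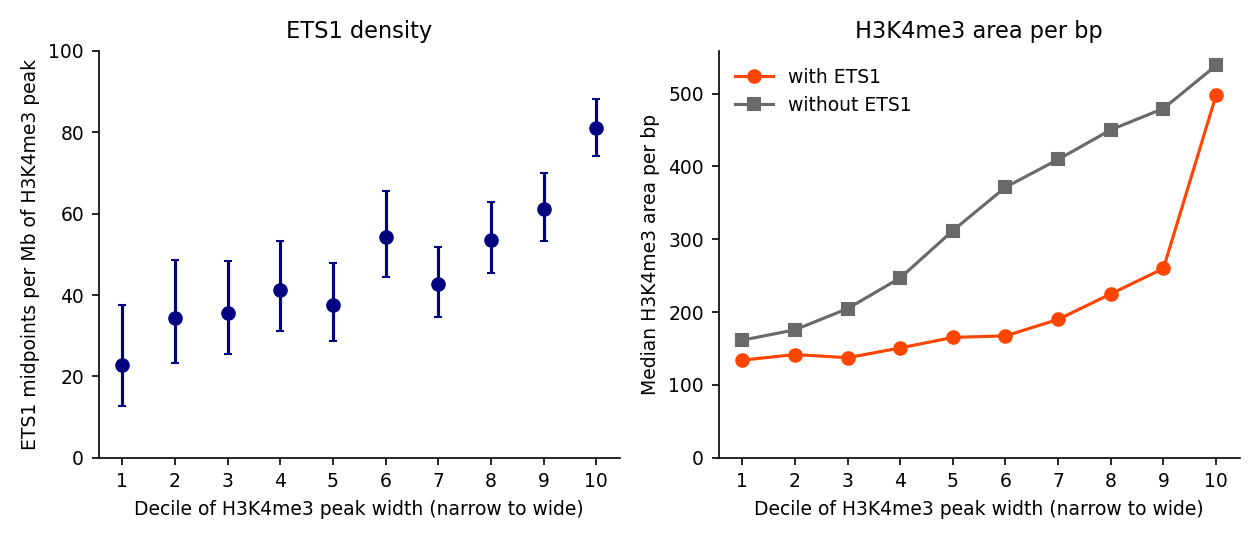
Left, ETS1 midpoints per Mb of H3K4me3 peak (y axis, bars are exact Poisson 95% intervals) by decile of H3K4me3 peak width, from 22.7 in the narrowest to 80.9 in the widest. Right, median H3K4me3 area per bp (y axis, authors' area units) in peaks with ETS1 and without it by the same deciles (x axis), with the peaks holding ETS1 lower in all 10.

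Whole H3K4me3 peaks with ETS1 were then compared with peaks without it, with the peaks without ETS1 weighted to the same width deciles. The widest decile ran from 1490 to 25130 bp and held 469 of the 1371 peaks with ETS1, and widths within it were not equalised. CBP was found in 492 of 1371 peaks with ETS1 (35.9%, 33.4 to 38.5) and 7.45% of those without, a difference of 28.4 points (25.8 to 31.0), with 6.04% of all H3K4me3 peaks as background. FAIRE was in 58.1% and 22.7%, with 17.4% of all. TFIIB was in 69.0% and 30.5%, with 20.4% of all, and TFIIE in 59.7% and 29.6%, with 19.5% of all. TBP was in 67.3% and 40.9%, with 28.7% of all, and Pol II in 65.2% and 43.8%, with 30.8% of all. Ser5P was in 45.6% and 32.4%, with 22.1% of all. TFIIH was in 20.1% and 9.63%, with 5.91% of all, and TFIIF in 10.4% and 2.00%, with 1.6% of all.

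With both sides limited to H3K4me3 peaks that overlapped Pol II, 894 of them with ETS1, most differences were smaller. CBP was in 40.4% of peaks with ETS1 and 12.7% of those without (difference 27.7 points, 24.3 to 31.0), and TFIIF in 13.1% and 3.36% (9.73 points, 7.46 to 12.0). TFIIB was in 83.6% and 58.1% (25.4 points, 22.7 to 28.2), and FAIRE in 63.9% and 39.2% (24.7 points, 21.2 to 28.1). TFIIE and TBP differed by 18.4 (15.3 to 21.5) and 11.2 points (8.68 to 13.6). Intervals for Ser5P (2.63 points, -0.715 to 5.97), TFIIA (0.843 points, -1.65 to 3.33) and Taf1 (-0.812 points, -3.15 to 1.53) included 0.

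The 5 sites of highest ETS1 area often sat on the rim of the mark. The first, on chromosome 6 at 41504341 to 41504730 with an area of 73238, had 9 of the 14 other lists, and its midpoint lay 65 bp outside an H3K4me3 peak of 970 bp. The third, on chromosome 10 at 4961891 to 4962450, had TFIIB, TFIIE, TFIIF, CBP and FAIRE peaks, and its nearest TBP and Pol II midpoints were 189435 and 189340 bp away. The fourth and the fifth, on chromosome 1 at 51641781 to 51642130 and chromosome 17 at 47668421 to 47668820, each had 7 lists, CBP and TBP included. In all these 4 the midpoint was outside the host. They were 350 to 560 bp wide, against a median of 140 bp over all sites. At such widths a flank can meet the 1 bp rule while the midpoint lies outside. The second, on chromosome 9 at 42273721 to 42274140, lay 400 bp inside a host of 2100 bp with TFIIE, TFIIF, Ser2P, FAIRE and H3K4me1 peaks and without TBP, Pol II or CBP.

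Sites with the most lists sat in wide hosts. On chromosome 8 at 114119751 to 114120040, 11 of the 14 lists overlapped an ETS1 peak of area 32616, almost at the centre of a host of 3070 bp, with TBP 10 bp and Pol II 20 bp away. Another 2 sites had 11 lists, on chromosome 9 at 43855201 to 43855370 in a host of 6370 bp, without CBP, and on chromosome 2 at 101879631 to 101879790 in a host of 2560 bp, with CBP. The highest areas without any of the 9 machinery lists were on chromosome 5 at 36431911 to 36432340 (42588), chromosome 2 at 9603221 to 9603490 (38693) and chromosome 13 at 43548651 to 43548920 (35569). Their nearest TBP midpoints were 57410, 30670 and 26105 bp away, and the first pair overlapped CBP, FAIRE and H3K4me1 while the last overlapped H3K4me1 only. Among sites with CBP and neither TBP nor Pol II, the highest areas were those on chromosomes 10 and 5 above and one on chromosome 6 at 90690811 to 90691140 (55167), with TFIIB, TFIIE and TFIIF.

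Hosts with several ETS1 sites were described for the 2 with 4 sites and for the one with the largest summed ETS1 area among those with 3. On chromosome 2 at 172801981 to 172805190, 4 ETS1 sites lay within 172802221 to 172803150, with areas from 1881 to 28796, beside 5 TBP and 2 CBP peaks of the host. On chromosome 15 at 73561831 to 73565620, 4 sites had areas from 3759 to 14129, 3 of them with Pol II and 2 with CBP. On chromosome 17 at 45623701 to 45628530, all 3 ETS1 sites overlapped both TBP and CBP, and the host of 4830 bp held 7 TBP and 6 CBP peaks and 11 of the 14 lists.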

How the data were processed

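Per the labels, ChIP-seq and FAIRE libraries were made from CD4+/CD8+ double-positive thymocytes crosslinked with formaldehyde, with sheep anti-rabbit beads for ETS1 and Protein-G beads for other targets. The deposited lists give each peak's position and area, a signal value that the authors took from their tracks, in bins of 10 bp. Per the deposited file names, 13 lists came from merged replicates and 3 (CBP, Taf1, TFIIB) from 1 replicate, and the FAIRE track name alone records no scaling or background subtraction. The build was mm9, per the submitters' processing notes. The caller, its threshold and read depth were not given in the sources used here, so the precision rests on peak numbers. Sequence and gene annotation of that build were not used here, so no motif search was run. The other 4 samples (RNA, input and immunoglobulin control) were not analysed here.

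Overlap meant 1 bp or more, and a site's host was the H3K4me3 peak with the longest overlap. Distances ran between midpoints. With 1 list per target no test was run. Shares carry Wilson and their differences Newcombe or, where weighted, Wald 95% intervals. The difference in mean factor number carries a normal, medians order-statistic and densities exact Poisson 95% intervals. All are for counting error only. Limits of a ratio of medians were formed from opposite limits of the intervals of both medians, and are not an exact 95% interval. The members and lists were chosen with earlier results of these data known. The sites named were those of highest ETS1 area (5), with the most other lists (3), of highest area without any of TBP, Pol II, Ser5P and the general factors (3), of highest area with CBP and neither TBP nor Pol II (3), and the 3 H3K4me3 peaks with the most ETS1 peaks, ties broken by summed ETS1 area. The 200 bp window for lists other than CBP and the general factors, weighting by area or width, the H3K4me3 area quintiles, the ETS1 area quartiles and area per bp were chosen after seeing the data. The interval code was tested on simulated data. Computation used Python 3.11.15 with pandas 2.3.3, numpy 2.4.6 and scipy 1.17.1, and plots were drawn with matplotlib 3.10.9.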

Additional observations from a re-analysis of the deposited data

How the results depend on the processing

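No paired analysis was possible because each target had 1 list. Under 14 alternatives, 2 of them chosen after seeing the data, 30 of 49 recomputed values stayed inside the interval of the reported value and 19 moved outside it. A change of direction was defined only for the general factor, CBP and width results, and 0 of their values changed direction. The position median and the TBP and Pol II shares have no direction that could change. The position median was 29.3% with at least 50% of the ETS1 peak inside the mark, 30.1% in the upper 50% of the H3K4me3 list by area and 28.7% with H3K4me3 peaks joined. The share with TBP within 150 bp was 65.7% in the upper 50% of the ETS1 list, 72.3% in the upper 50% of the H3K4me3 list and 65.2% at 300 bp; with Pol II it was 66.9% in the upper 50% of the H3K4me3 list and 62.0% at 300 bp. With all factor lists reduced to the 1262 peaks of the shortest, these shares fell to 8.63% and 9.25%, the general factor difference to 0.461 and the CBP difference to 31.3 points. In the 200 bp window the general factor difference was 0.826. The width ratio was 1.85 with at least 50% of the ETS1 peak inside, 1.40 with peaks joined, 1.54 in peaks with Pol II, 1.42 when matched on area decile, 1.55 in peaks with TBP and Pol II and 1.29 in peaks without Pol II. With no depth or replicate lists, the absence of a peak cannot be told apart from one below the authors' threshold.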
